A study of Mus musculus with 6 samples.

Results

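The aldo-keto reductases are enzymes that use NADPH to reduce aldehydes and ketones to alcohols, and 10 genes were taken here: Akr1a1, Akr1b3, Akr1b7, Akr1b8, Akr1b10, Akr1c12, Akr1c13, Akr1e1, Akr7a5 and Gm13857, a pseudogene that overlaps Akr1b7 on the opposite strand. The genes were chosen by symbol, as rows of the count tables whose Ensembl identifier carries 1 of these names in GENCODE release M21. They make up 10 of the 55335 genes in the tables. They were picked knowing that Akr1b7 and Gm13857 were much higher in IFNγR1KO cells, so the contrast between the groups is given for them as a description. No p-value of theirs is given, and nothing is read from which of them pass a threshold.

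RNA was sequenced from 3 scrambled control and 3 IFNγR1KO cultures of B16 mouse melanoma cells, which the labels number 1, 2 and 3 and 10, 11 and 12. B16 cells are a pigmented melanoma line from C57BL/6 mice, and the sequenced series compares cells with and without the receptor chain IFNγR1, which binds interferon-γ. Both groups carry lentiCRISPR v2 and were selected with puromycin, and the labels name no drug or cytokine treatment. The scrambled control carries a guide against GFP, the IFNγR1KO cells a guide against Ifngr1, and the study grew its lines from single cells, so a difference between the groups and a difference between clones cannot be told apart. The cultures were seeded in triplicate, and whether each IFNγR1KO culture came from its own clone is not given in the sources used here, so the spread within a group may be that between cultures of 1 clone.

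Total counts on genes ran from 9402640 to 10579788 in the control libraries and from 6698956 to 7409479 in the IFNγR1KO libraries, so 1 count was worth 0.0966 to 0.109 CPM in the first and 0.135 to 0.142 CPM in the second. CPM, the usual depth-scaled count, was computed here on library sizes scaled by TMM. Ifngr1 itself had 154, 144 and 172 counts in the control libraries against 80, 85 and 82 in the IFNγR1KO libraries (log2 fold change -0.47, standard error 0.16, adjusted p = 0.0729 from edgeR). A cut by Cas9 need not remove the RNA, so these counts do not test the labels. The 7 melanoma and melanocyte markers were all expressed, with a summed level of 31716 to 34659 CPM in the control and 27898 to 32830 CPM in the IFNγR1KO libraries.

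Members of this superfamily clear aldehydes that arise from sugars, lipids and steroids. Akr1a1, aldehyde reductase, reduces glucuronate on the way to ascorbate and many short aldehydes. Akr1b3 is aldose reductase, which turns glucose into sorbitol in the polyol pathway. Akr1b7 was first known as a protein of the mouse vas deferens and of the adrenal cortex, where it is under hormone control, reduces isocaproaldehyde released when cholesterol is cut to start steroid synthesis, and can make prostaglandin F2α. Akr1b8 and Akr1b10 are its close relatives and reduce lipid aldehydes and retinal. The Akr1c genes encode hydroxysteroid dehydrogenases and xenobiotic reductases, Akr1e1 reduces 1,5-anhydrofructose, and Akr7a5 reduces succinic semialdehyde and the aldehydes of aflatoxin.

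The 4 Akr1b genes form a cluster on chromosome 6. In GRCm38, Akr1b3 lies at chr6:34302434-34317478 on the minus strand, followed on the plus strand by Akr1b8 at chr6:34354119-34368463, Akr1b10 at chr6:34384218-34396950 and Akr1b7 at chr6:34412334-34423142. Their coding sequences are alike: that of Akr1b7 is 89.3% identical to that of Akr1b10, 85.7% to Akr1b8 and 73.1% to Akr1b3. All 4 encode 316 codons. The longest run of identical coding bases between Akr1b7 and each of the 3 others is 59, 52 and 23 bases, in the same order. Exon 6 is shown here for the 4 genes because it is wholly coding, shows how far the paralogs can be told apart by a read, and in Akr1b7 lies entirely under the last exon of Gm13857. The sequences are those of the GENCODE transcripts, 5′ to 3′ on the strand of each gene, and capitals mark the bases that differ from Akr1b7. The exon spans chr6:34419408-34419514 in Akr1b7, chr6:34392389-34392495 in Akr1b10, chr6:34363722-34363828 in Akr1b8 and chr6:34309961-34310067 in Akr1b3.
Akr1b7: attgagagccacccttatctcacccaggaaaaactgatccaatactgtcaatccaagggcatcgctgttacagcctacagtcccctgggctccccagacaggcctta
Akr1b10: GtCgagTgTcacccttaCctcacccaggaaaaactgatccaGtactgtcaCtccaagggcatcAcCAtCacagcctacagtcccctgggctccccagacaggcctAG
Akr1b8: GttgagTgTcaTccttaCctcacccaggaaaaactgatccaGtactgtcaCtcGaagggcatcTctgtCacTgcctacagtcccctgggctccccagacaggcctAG
Akr1b3: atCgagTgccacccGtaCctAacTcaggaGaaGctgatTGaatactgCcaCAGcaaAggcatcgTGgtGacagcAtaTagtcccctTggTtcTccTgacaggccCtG
Of its 107 bases, 13 differ in Akr1b10, 13 in Akr1b8 and 26 in Akr1b3. The longest run that Akr1b7 shares with Akr1b10 in this exon is 36 bases. The read length is not given in the sources used here, and reads that aligned equally well to several places were set aside by the counting, which took 3.76% to 4.61% of the reads per library.

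Gm13857 spans chr6:34419396-34445436 on the minus strand and is annotated as a transcribed processed pseudogene, a copy of a spliced mRNA that lies in a transcript of its own. Its last exon, of 1742 bases, runs across exons 6, 7 and 8 of Akr1b7 and 75 of the 83 bases of exon 9. The overlap comes to 348 exonic bases, which are 27.2% of the exonic length of Akr1b7 and 12.2% of that of Gm13857. Elsewhere, the 2337-base transcript of Gm13857 holds a 170-base alignment in the sense direction that is 87.6% identical to Akr1b10 and 85.9% identical to Akr1b7.

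Akr1b7 was close to silent in scrambled control cells and higher in each IFNγR1KO library. It had 6, 6 and 8 counts in control libraries 1, 2 and 3, and 121, 83 and 46 counts in IFNγR1KO libraries 10, 11 and 12. In CPM these were 0.651, 0.597 and 0.773 against 17.2, 11.2 and 6.47. Every IFNγR1KO library was above every control library. The group means were 0.674 ± 0.0902 CPM in scrambled control and 11.6 ± 5.37 CPM in IFNγR1KO cells (SD, n = 3 each), a fitted log2 fold change of 4.08 with a standard error of 0.41. From the summed counts of each group, 20 and 250, the ratio on these library sizes was 17.2, with a 95% interval of 10.9 to 28.6 that covers counting error only. The IFNγR1KO libraries were not alike: the highest was 2.66 times the lowest, and the SD of log2 CPM was 0.69 there against 0.14 in the control. Even library 12, the lowest of the 3 at 6.47 CPM, was far above the highest control library at 0.773 CPM.

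Gm13857 followed Akr1b7. Its counts were 1, 5 and 2 in control libraries 1, 2 and 3, and 54, 37 and 35 in IFNγR1KO libraries 10, 11 and 12. The means were 0.266 ± 0.205 CPM and 5.87 ± 1.56 CPM (SD, n = 3 each), with no overlap between the groups. The fitted log2 fold change was 4.37 (standard error 0.44). The ratio of the summed counts on the library sizes was 21.7 (95% interval of counting error 10.7 to 51.3). By log2 fold change Gm13857 ranked 6 and Akr1b7 ranked 9 of the 13642 genes tested. The set was picked knowing of these rises, so nothing is read from the ranks.

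The share of both genes' counts that fell on Gm13857 was 14.3%, 45.5% and 20.0% in control libraries 1, 2 and 3, on only 7, 11 and 10 counts. In IFNγR1KO libraries 10, 11 and 12 it was 30.9%, 30.8% and 43.2%, on 175, 120 and 81 counts. Pooled, it was 28.6% in scrambled control (exact Clopper-Pearson 95% interval 13.2 to 48.7%) and 33.5% in IFNγR1KO cells (28.8 to 38.5%). The 2 intervals overlap, cover counting error only and leave out the spread between libraries, so a difference in the share was not tested. Gm13857 held 0.446, 0.446 and 0.761 counts for each count on Akr1b7 in libraries 10, 11 and 12. Within the IFNγR1KO group, library 12 had the lowest Akr1b7 count and the highest share. The strand setting of the counting is not given in the sources used here. To see what this setting did, 26 genes with at least 95% of their exonic bases inside opposite-strand exons of an expressed gene were read, and the counts per base of 22 came to 0.5 times those of the partner or more, while those of 3 came to 0.1 times or less. RNA made from Gm13857 and RNA of Akr1b7 counted on Gm13857 therefore cannot be told apart, in either direction. With the counts of both genes added as 1 feature, a setting chosen after seeing the data, the log2 fold change was 4.19 (standard error 0.34).

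**Figure D1:**
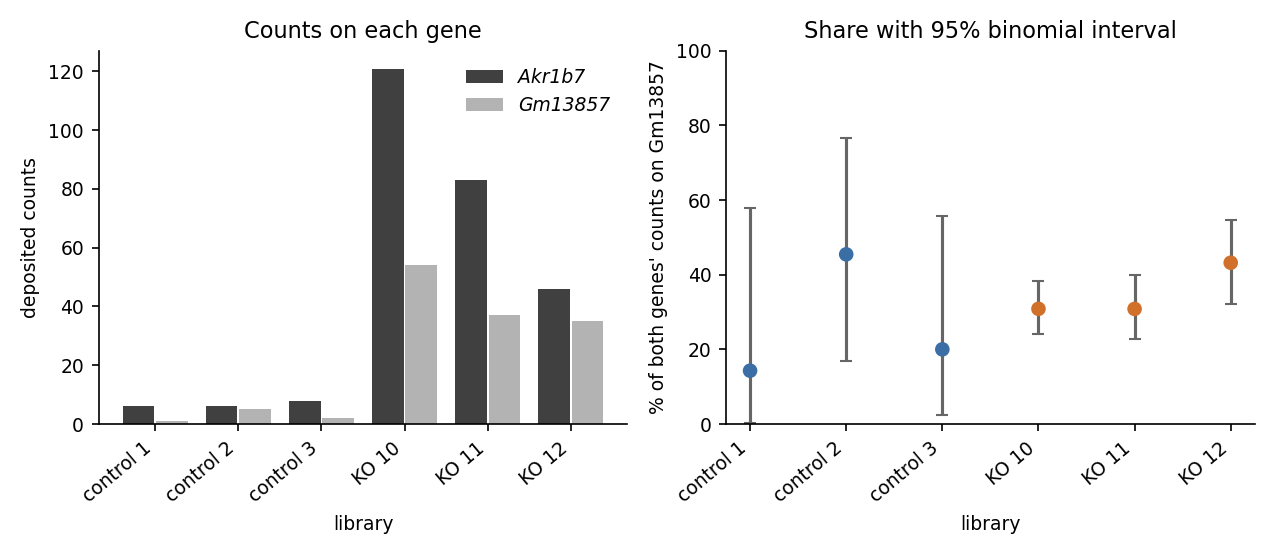
Left, deposited counts on Akr1b7 (dark bars) and Gm13857 (light bars) in each library; right, the percent of both genes' counts that fell on Gm13857, with exact 95% binomial intervals, for scrambled control (blue) and IFNγR1KO (orange) libraries. Control libraries hold at most 8 counts on either gene and IFNγR1KO libraries at least 35, while the intervals of the share overlap between the groups.

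The 3 paralogs in the Akr1b cluster had small differences between the groups. Aldose reductase, Akr1b3, was at 286, 292 and 220 CPM in control libraries and 245, 232 and 196 CPM in IFNγR1KO libraries (log2 fold change -0.25, standard error 0.16), and its groups overlapped. Akr1b10, the closest relative of Akr1b7, was at 32.0, 37.1 and 27.5 CPM against 35.5, 34.7 and 30.6 CPM (log2 fold change 0.06, standard error 0.15). Akr1b8 was at 52.8, 59.3 and 55.5 CPM against 46.5, 50.3 and 49.5 CPM. Its 3 IFNγR1KO libraries were below its 3 control libraries, and its log2 fold change of -0.20 had a standard error of 0.13. At 2 standard errors, the limits of these log2 fold changes ran from -0.56 to 0.07 for Akr1b3, from -0.24 to 0.37 for Akr1b10 and from -0.45 to 0.06 for Akr1b8.

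Outside the cluster, Akr1a1 on chromosome 4 was the most abundant member in every library. Its 3 control libraries held 735, 938 and 740 CPM and its 3 IFNγR1KO libraries 880, 857 and 789 CPM, so the groups overlapped (log2 fold change 0.07, standard error 0.16). Akr7a5, also on chromosome 4, was at 23.9 ± 2.75 CPM and 22.1 ± 4.28 CPM (SD, n = 3 each; log2 fold change -0.12, standard error 0.17). Akr1e1, on chromosome 13, was at 37.8 ± 4.68 CPM and 41.2 ± 3.36 CPM (SD, n = 3 each; log2 fold change 0.12, standard error 0.15). In all 3 genes the group means differed by less than the SD of either group.

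The Akr1c pair on chromosome 13 differed in level. Akr1c13, at chr13:4191150-4205596, was at 25.5, 19.7 and 13.7 CPM in control libraries and 28.1, 26.0 and 18.6 CPM in IFNγR1KO libraries, with overlapping groups and the widest standard error of the 7 members with the smallest changes (log2 fold change 0.31, standard error 0.23). Akr1c12, at chr13:4268176-4279433, had 1, 4 and 2 counts in control libraries against 8, 6 and 5 in IFNγR1KO libraries. That is too few for the filter on low counts, so it has no fitted value. In CPM the groups did not overlap, and the ratio of the summed counts on the library sizes was 3.73 (95% interval of counting error 1.50 to 10.5). The 2 coding sequences are 96.2% identical, with a run of 228 identical bases, and Akr1c13 had 132 to 235 counts per library, so the few counts of Akr1c12 are uncertain.

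Counted over the set, all 10 members had at least 1 count in every library, and 9 passed the filter on low counts. Of these 9, Akr1b7 and Gm13857 met the thresholds for a differentially expressed gene (DEG), an adjusted p under 0.05 with an absolute log2 fold change above 1. Both were higher, where 3.25% of all genes tested were DEGs that were higher and 1.96% DEGs that were lower. Both had at most 8 counts in a control library, under the minimum of 10, and so passed the filter through the IFNγR1KO libraries alone. Since this contrast chose the members, nothing is read from the count of DEGs among them. The other 7 tested members had log2 fold changes from -0.25 to 0.31. The median over the 9 was 0.07, beside -0.0015 over all genes tested. Groups did not overlap in 4 of the 10 members, Akr1b7, Gm13857 and Akr1c12 above the control and Akr1b8 below it, where 32.6% of all genes tested had groups that did not overlap. Akr1b7 and Gm13857 were known to be higher beforehand, and Akr1c12 is not among the genes tested. Nothing is read from this count either.

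**Figure D2:**
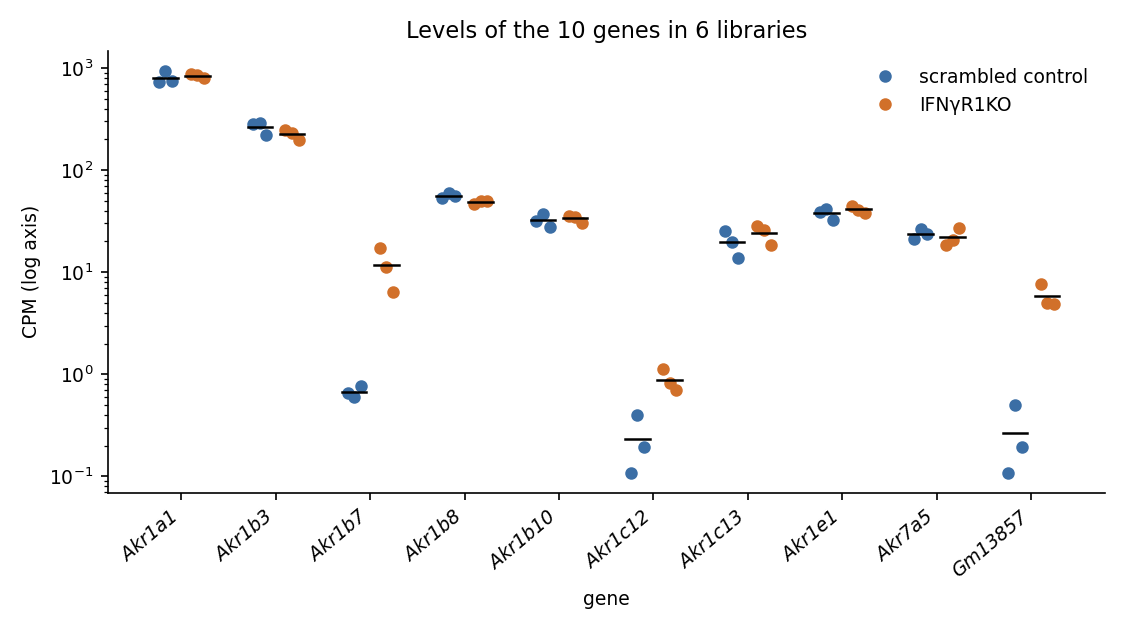
CPM of the 10 genes in each library on a log axis, with scrambled control in blue, IFNγR1KO in orange and black bars for the group means. Akr1b7, Akr1c12 and Gm13857 have IFNγR1KO libraries above every control library, and the other genes sit at nearly the same height in both groups.

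**Figure D3:**
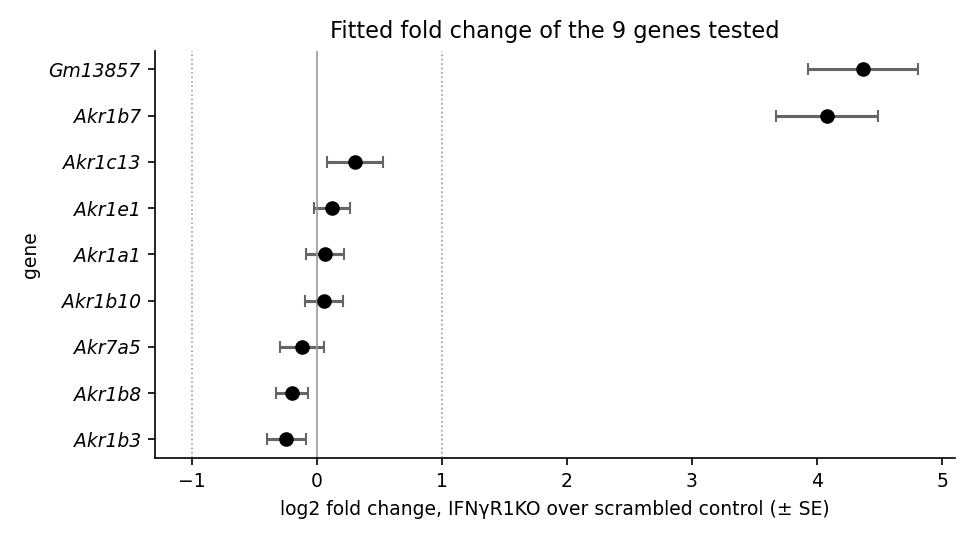
Fitted log2 fold change of IFNγR1KO over scrambled control with its standard error for the 9 genes that passed the filter on low counts; the dotted lines mark -1 and 1. Gm13857 (4.37) and Akr1b7 (4.08) lie apart from the other 7, which fall between -0.25 and 0.31.

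Levels were compared between genes as CPM per kilobase of exonic length. In scrambled control, Akr1a1 was highest at 292 ± 42.0 CPM per kb, followed by Akr1b8 at 37.3 ± 2.19, Akr1b3 at 31.7 ± 4.77, Akr1c13 at 13.7 ± 4.11, Akr7a5 at 13.3 ± 1.53, Akr1e1 at 10.4 ± 1.29, Akr1b10 at 9.12 ± 1.35, Akr1b7 at 0.526 ± 0.0704, Akr1c12 at 0.185 ± 0.118 and Gm13857 at 0.0935 ± 0.0717 CPM per kb (SD, n = 3). Neighbours in this order had overlapping libraries for Akr1c13 and Akr7a5, for Akr1e1 and Akr1b10, and for Akr1c12 and Gm13857. In IFNγR1KO cells the order of the first 7 was the same. Akr1b7 reached 9.08 ± 4.19 CPM per kb there (SD, n = 3), from 5.05 to 13.4, a range that took in that of Akr1b10 at 9.51 ± 0.737, and Gm13857 at 2.06 ± 0.548 moved above Akr1c12 at 0.701 ± 0.179 CPM per kb.

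The place of Akr1b3 depended on the length used. GENCODE lists 8384 exonic bases for Akr1b3 over all its transcripts and 1387 for the principal one. With the principal transcript, a setting chosen after seeing the data, Akr1b3 stood at 192 CPM per kb in scrambled control, second to Akr1a1 at 566 and above Akr1b8 at 41.1. Akr1b7 has a single transcript length of 1281 bases and kept its level, so at 9.08 CPM per kb in IFNγR1KO cells it was then below Akr1b10 at 24.5 CPM per kb, with no overlap of their libraries. As a share of the Akr1b cluster's summed CPM per kb, Akr1b7 made up 0.546% to 0.843% in control libraries and 7.20% to 16% in IFNγR1KO libraries by exonic length, and 0.166% to 0.274% against 2.46% to 5.36% by the principal transcript. Akr1a1 made up 69.2% to 73.1% of the 9 protein-coding members in all 6 libraries by exonic length. Of the raw counts of these 9 genes, Akr1b7 held 0.0422% to 0.0694% in control and 0.559% to 1.31% in IFNγR1KO libraries.

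Promoter sequence was taken from RefSeq (GRCm38.p6), from 250 bases before to 50 bases after each gene start, and was found for 8 of the 10 members. The promoters of Akr1b7 and of its closest relative are shown because their coding sequences are nearly the same while Akr1b7 was higher in IFNγR1KO cells and Akr1b10 had overlapping groups. They are printed 5′ to 3′ on the plus strand, and capitals mark runs of at least 10 bases found in both. The window is chr6:34412112-34412411 for Akr1b7 and chr6:34383997-34384296 for Akr1b10.
Akr1b7: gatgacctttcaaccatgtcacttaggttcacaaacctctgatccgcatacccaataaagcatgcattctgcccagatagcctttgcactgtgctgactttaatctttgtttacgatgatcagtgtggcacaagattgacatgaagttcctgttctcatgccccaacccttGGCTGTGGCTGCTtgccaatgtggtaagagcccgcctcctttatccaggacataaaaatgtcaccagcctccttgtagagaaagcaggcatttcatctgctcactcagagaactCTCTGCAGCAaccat
Akr1b10: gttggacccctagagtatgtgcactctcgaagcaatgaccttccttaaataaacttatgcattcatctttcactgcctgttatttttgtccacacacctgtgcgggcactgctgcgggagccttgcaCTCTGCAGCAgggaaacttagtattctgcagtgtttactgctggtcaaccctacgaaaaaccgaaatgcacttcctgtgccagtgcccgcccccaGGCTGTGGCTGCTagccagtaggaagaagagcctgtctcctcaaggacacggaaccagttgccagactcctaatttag
The 2 windows are 68.8% identical over 240 aligned bases, against 89.3% for the coding sequences, and share no run longer than 13 bases. Akr1b7 and Akr1b8 are 68.7% identical over 249 aligned promoter bases. This measure leaves out gaps and is high for less related windows too. Against members outside the cluster, Akr1b7 ran from 53.8% with Akr1c12 to 64.8% with Akr1e1. The Akr1c12 and Akr1c13 windows, in contrast, are 95.9% identical. The Akr1b7 window holds 3 CpG dinucleotides, that of Akr1b10 holds 7, that of Akr1b8 holds 10 and that of Akr7a5 holds 27, where the median over 32544 promoters is 7.

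Motifs were searched on both strands of the windows. The antioxidant response element (TGACNNNGC) bound by NRF2 was in none of the 8 member windows and in 12.4% of all promoters. Neither the AP-1 site (TGANTCA) nor the amino acid response element (TGATGNAAN) was in a member window, beside 7.79% and 3.90% of all promoters. The element AGGTCA, bound by many nuclear receptors, was in 3 of the 8 windows, those of Akr1b7, Akr1b10 and Akr7a5, and in 16.2% of all promoters. The CCAAT box, letters CCAAT, was in the windows of Akr1b7 and Akr1e1 and in 37.4% of all promoters, and Akr1b7 had it at positions -199 and -64 from the gene start. The GC box GGGCGG was in the windows of Akr1b8, Akr1b10 and Akr7a5, not in that of Akr1b7, and in 35.9% of all promoters. The TATA box, searched as TATAAA, was in the Akr1b8 window and in 13.6% of all promoters. In Akr1b8 the letters were on the minus strand at position -159, and near matches were not searched. A match of these letters is no evidence of binding, and the absence of a match says only that the letters are not in the window.

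The genes around Akr1b7 were tested next, as they were not members. Within 500 kb of Akr1b7 lie 24 other genes, of which 9 were tested. None was a DEG with edgeR or with DESeq2, where 5.20% of all genes tested were DEGs. An unadjusted p under 0.05 was found for 3 higher and 2 lower genes, where 14.2% of all genes tested passed it as higher and 14.8% as lower. Their log2 fold changes ran from -0.34 to 0.53. Bpgm, which makes 2,3-bisphosphoglycerate and lies 53.1 kb beyond Akr1b7, was at 60.5 ± 5.52 CPM and 47.6 ± 5.65 CPM (SD, n = 3 each). The smallest adjusted p was that of Tmem140, at 19.3 ± 0.723 CPM in the control group and 25.8 ± 1.24 CPM in the other (SD, n = 3 each, log2 fold change 0.42, adjusted p = 0.0675 from edgeR), with 37.0% of its exonic length shared with Cyren on the other strand. Within 500 kb of Akr1c12, 1 of 29 other genes was tested, Net1, a RhoA exchange factor, at 18.4 ± 0.658 and 12.1 ± 2.14 CPM (SD, n = 3 each, log2 fold change -0.60, adjusted p = 0.0364 from edgeR), which was not a DEG. The adjusted p of Net1 was above 0.05 when any 1 library other than IFNγR1KO library 12 was left out, at 0.0528 to 0.172.

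Genes of the pathways in which these enzymes work were taken as 8 lists written by hand from general knowledge. The lists were chosen with earlier results of these data known, so they give no independent test. They hold 126 genes, of which 90 were tested, and 6 were DEGs that were higher and 3 DEGs that were lower, where 3.25% and 1.96% of all genes tested were DEGs in these directions. Without the limit on fold change 15 were higher and 14 lower, where 7.73% and 7.62% of all genes tested were. These counts rested on single libraries: they were 10 and 7 without IFNγR1KO library 10, 9 and 8 without library 11, 16 and 19 without library 12, and 10 and 13, 11 and 8, and 12 and 10 without control libraries 1, 2 and 3. Their median log2 fold change was -0.12, beside -0.0015 over all genes tested. Some genes stand in more than 1 list. Counts at an unadjusted p under 0.05 in the lists are to be read against the 14.2% of all genes tested that passed it as higher and the 14.8% that passed it as lower. All adjusted p values that follow are from edgeR.

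Of the other 11 genes of the aldo-keto reductase superfamily, 6 had no count in any library, and 1 was tested. It was Kcnab2, a β subunit of voltage-gated potassium channels, which fell without being a DEG, from 114 ± 17.4 to 77.5 ± 12.9 CPM (SD, n = 3 each, log2 fold change -0.56, adjusted p = 0.0343). Its adjusted p was 0.157 without IFNγR1KO library 10, 0.149 without library 11, 0.114 without control library 2 and 0.0798 without control library 3. The rest had at most a mean of 0.745 CPM in either group.

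The aldehyde dehydrogenase family was taken by name, and not all of its members oxidise aldehydes that aldo-keto reductases reduce. Of its 20 genes, 15 were tested and 4 were DEGs, all higher, where 3.25% of all genes tested were DEGs that were higher. Aldh1l2, a mitochondrial enzyme of folate metabolism, stood at 33.7, 34.3 and 36.9 CPM in control libraries and at 263, 227 and 266 CPM in IFNγR1KO libraries (log2 fold change 2.85, standard error 0.14, adjusted p = 1.4e-07). Aldh18a1, which starts proline synthesis, rose from 92.1 ± 12.3 to 244 ± 39.1 CPM (SD, n = 3 each, log2 fold change 1.40, adjusted p = 0.000166). Aldh6a1, of valine breakdown, rose from 12.4 ± 1.87 to 30.6 ± 3.74 CPM (SD, n = 3 each, log2 fold change 1.30, adjusted p = 0.000441). The fourth, named after its value was seen, was Aldh1a1, which makes retinoic acid from retinal, with a log2 fold change of 1.14 (adjusted p = 0.00177). The median of the 15 was 0.09. Exons on the other strand cover 14.1% of the exonic length of Aldh1l2 and 18.6% of that of Aldh6a1.

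Of 32 other enzymes that reduce carbonyls or clear dicarbonyls, 29 were tested, with a median log2 fold change of -0.06. Among them 1 was a DEG that was higher and 1 a DEG that was lower, where 3.25% and 1.96% of all genes tested were. Adh7, an alcohol dehydrogenase active on retinol, rose from 34.8 ± 1.69 to 77.7 ± 9.18 CPM (SD, n = 3 each, log2 fold change 1.16, adjusted p = 0.000241). Dhrs3, which reduces retinal to retinol, fell from 8.11 ± 0.645 to 2.36 ± 1.33 CPM (SD, n = 3 each, log2 fold change -1.77, adjusted p = 0.00338).

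Of 18 genes of prostaglandin synthesis and handling, 9 were tested and 2 were DEGs, both lower. Over all genes tested, 1.96% were DEGs that were lower. Hpgds, the hematopoietic prostaglandin D synthase, stood at 92.2, 84.4 and 78.4 CPM in control libraries and at 42.2, 35.2 and 32.1 CPM in IFNγR1KO libraries (log2 fold change -1.22, adjusted p = 0.000236). Ptgs1, cyclooxygenase-1, which supplies the prostaglandin H2 from which all other prostaglandins are made, was at 4.04 ± 0.637 and 1.66 ± 0.953 CPM (SD, n = 3 each, log2 fold change -1.27, adjusted p = 0.0336). It was no longer a DEG when IFNγR1KO library 10 or any 1 of the 3 control libraries was left out, with adjusted p values of 0.0644 to 0.138. Ptgs2, cyclooxygenase-2, and Ptgfr, the receptor of prostaglandin F2α, had no count in any library.

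In the polyol pathway and osmotic response list, 7 of 8 genes were tested and none was a DEG with edgeR or DESeq2, with 1 higher and 3 lower at an unadjusted p under 0.05. Sord, sorbitol dehydrogenase, which follows aldose reductase, was at 198 and 164 CPM on average (log2 fold change -0.27, adjusted p = 0.239). Slc38a2, an amino acid transporter, was higher without being a DEG, from 203 ± 17.9 to 286 ± 14.1 CPM (SD, n = 3 each, log2 fold change 0.49, adjusted p = 0.0278). Slc6a6, the taurine transporter, named after its value was seen, was lower, at 222 ± 39.4 and 150 ± 25.7 CPM (SD, n = 3 each, log2 fold change -0.57, adjusted p = 0.0389). Neither call held with every library left out: the adjusted p of Slc38a2 was 0.0563 to 0.109 without IFNγR1KO library 10 or 11 or control library 1 or 2, and that of Slc6a6 was 0.0602 to 0.173 without any 1 library other than IFNγR1KO library 12. In the glucuronate and ascorbate route, where Akr1a1 works, 4 of 7 genes were tested and none was a DEG with either tool, with 1 higher and 1 lower at an unadjusted p under 0.05. Ugdh, which makes UDP-glucuronate, fell without being a DEG, from 41.3 ± 2.49 to 25.2 ± 2.00 CPM (SD, n = 3 each, log2 fold change -0.72, adjusted p = 0.00477), and its adjusted p was at most 0.0453 with any 1 library left out. Miox and Gulo, the enzymes on either side of this route, had no count in any library.

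All 21 genes of the NRF2 list, for the response to electrophiles and oxidants, were tested. It holds Nfe2l2 and Keap1, the NRF2 gene and its regulator, beside targets, so its counts are not a measure of NRF2 activity. Slc7a11, the cystine transporter, was the 1 DEG, and rose from 27.2 ± 4.86 to 91.4 ± 8.22 CPM (SD, n = 3 each, log2 fold change 1.75, adjusted p = 2.6e-05). Without the limit on fold change 2 genes were higher and 5 were lower, where 7.73% and 7.62% of all genes tested were. The median of the 21 was -0.31. The 5, named after their values were seen, were Gclm, Txnrd1, Me1, Gsr and Keap1, with log2 fold changes from -0.54 to -0.97, and the second higher gene was Hmox1 at 0.88. The count of 5 was 2 without IFNγR1KO library 10 or 11, 8 without library 12 and 3 without control library 2. Of the 5, Me1 and Gsr had an adjusted p under 0.05 with each library left out, as had Hmox1.

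Of 11 nuclear receptors reported to act on Akr1b7, 6 were tested and none was a DEG with either tool, with 1 higher at an unadjusted p under 0.05. Nr5a1, steroidogenic factor 1, had at most 1 count in a library, and Nr5a2 had none. Nr1h2, the liver X receptor β, was at 56.6 and 62.8 CPM on average (log2 fold change 0.15, adjusted p = 0.483). Rxrb, a retinoid X receptor, rose without being a DEG, from 50.6 ± 1.90 to 75.2 ± 2.7 CPM (SD, n = 3 each, log2 fold change 0.57, adjusted p = 0.00911). Without IFNγR1KO library 11 its adjusted p was 0.0561.

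**Figure D4:**
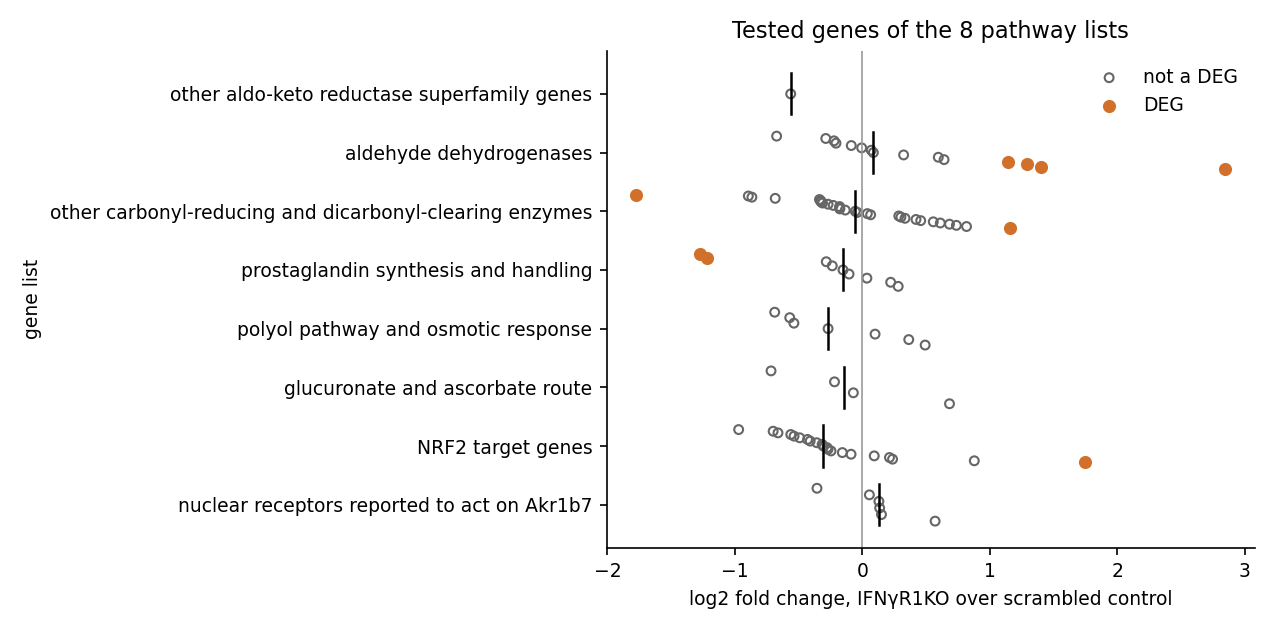
Log2 fold change of IFNγR1KO over scrambled control for each tested gene of the 8 pathway lists, with DEGs filled in orange, other genes as open circles and a black bar at the median of each list. The 9 DEGs lie in 4 lists, with Aldh1l2 at 2.85 the farthest right and Dhrs3 at -1.77 the farthest left.

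Markers of other cells were read beside Akr1b7, since it is best known from the adrenal cortex. These markers, too, were chosen with earlier results of these data known. Of 11 genes of steroidogenic adrenal cells, 7 had no count in any library, among them Cyp11a1, the side-chain cleavage enzyme, Cyp21a1, Cyp11b1 and the ACTH receptor Mc2r. The other 4 were Nr5a1, Star, at 1.64 and 1.76 CPM on average, and the electron carriers Fdx1 and Fdxr, which other cells use too. None of the 3 tested was a DEG, with no unadjusted p under 0.05, and the summed level of the list was 57.8 to 75.6 CPM in scrambled control and 55.7 to 70.3 CPM in IFNγR1KO cells. The 5 immune markers summed to 3.23 to 7.16 CPM over the 6 libraries, nearly all of it Lyz2, and Cd3e and Adgre1 had no count. The 3 endothelial markers summed to at most 0.217 CPM and the 4 epithelial markers to at most 0.868 CPM. Of the 4 fibroblast markers, Col1a1 and Col1a2 were DEGs that were higher (log2 fold changes 1.96 and 1.07, adjusted p = 0.00175 and 0.000476), so the summed level went from 57.0 to 75.3 CPM in scrambled control to 129 to 133 CPM in IFNγR1KO cells. Col3a1 had at most 3 counts and Pdgfra had a log2 fold change of -0.77 (adjusted p = 0.0866). Their part in the levels of the members was not tested.

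The genes whose pattern over the 6 libraries was most like that of Akr1b7 were found by the root mean square difference of log2 CPM, after each gene was centred on its own mean. They were Angptl6, an angiopoietin-like protein, at 0.248, Cyb5r2, a cytochrome b5 reductase, at 0.334, Soat2, which esterifies cholesterol, at 0.346, Masp1, a protease of the lectin pathway of complement, at 0.394, and Gm15663 at 0.415. Angptl6 had 27, 37 and 33 counts in control libraries against 357, 235 and 178 in IFNγR1KO libraries. Like Akr1b7 it was highest in library 10 and lowest in library 12 of the IFNγR1KO group. So was Cyb5r2, with 467, 353 and 270 counts, and stood at 56, 49 and 41 counts in the control. Soat2 had no count in any control library and 15, 16 and 10 counts in IFNγR1KO libraries. Masp1 was nearly level within IFNγR1KO cells, at 287, 298 and 273 counts. Gm13857, which overlaps Akr1b7, was at 0.452 by the same measure. The likeness rests on 6 libraries in 2 groups, any gene with a rise of like size is close by it, and it was given no test.

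**Figure D5:**
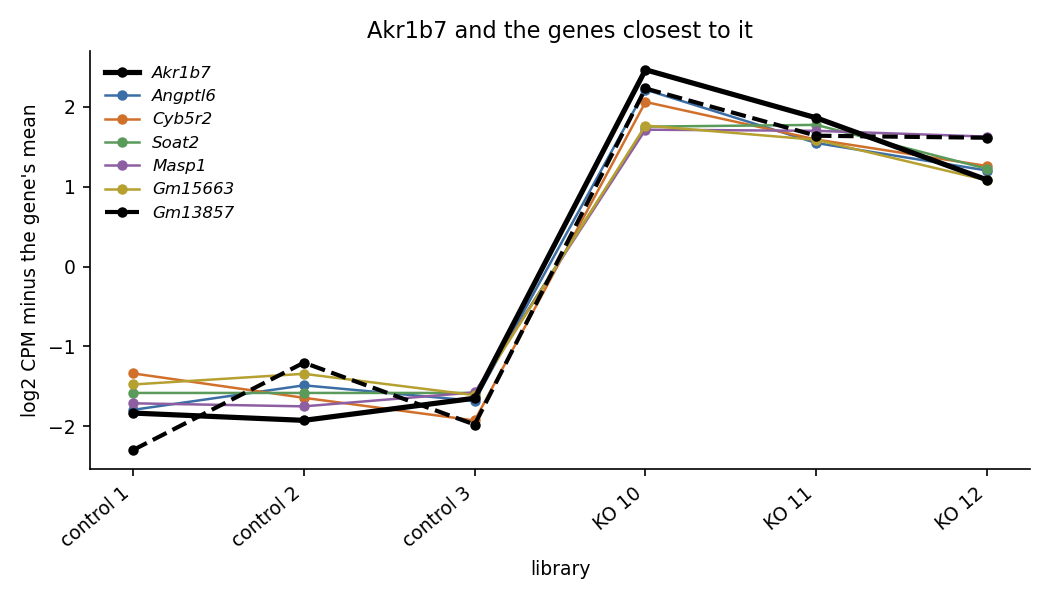
Log2 CPM minus each gene's mean over the 6 libraries for Akr1b7 (thick black), Gm13857 (dashed) and the 5 tested genes outside the set closest to Akr1b7; lines only join the values of 1 gene. All 7 genes are below their mean in the control libraries and above it in the IFNγR1KO libraries, and Akr1b7 spreads most among the latter, from 2.46 in library 10 to 1.08 in library 12.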

How the data were processed

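The authors deposited raw read counts per gene, 1 table for each of 6 libraries, made from poly(A)-selected, paired-end RNA-seq of GRCm38 alignments with STAR 2.7.5a and HTSeq 0.11.2; the submitters' notes also name DESeq2 1.34.0. The counts were not normalized or filtered. The annotation release and strand setting of the counting are not given in the sources used here. Between 46.9% and 47.7% of the reads were listed on no gene. Of 55335 identifiers, 55154 matched GENCODE M21, from which names, lengths and overlaps were taken.

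Genes with low counts were removed with filterByExpr (minimum count 10, minimum total 15), and 13642 were fitted with edgeR 4.0.16 in R 4.3.3 (TMM, quasi-likelihood test, Benjamini-Hochberg adjustment over all tested genes). A DEG had to pass 0.05 in adjusted p and 1 in the size of its log2 fold change. The fit was tested on simulated data. Groups came from the labels. Intervals of ratios and of shares are 95% intervals for counting error only. Limits at 2 standard errors are only roughly 95% limits, as the groups are small. Any 2 libraries of a group differed by more than sampling noise (chi-square per degree of freedom 2.74 to 24.7). Alignments used Biopython 1.88 and blastn 2.17.0. Alternatives were DESeq2 1.42.0, RLE size factors, no filter, libraries thinned to 6698956 counts, each library left out, a test against a log2 fold change of 1, other lengths and a 250 kb window.

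The members, the pathway lists and the markers were chosen with earlier results of these data known. Named genes beside the members were Ifngr1, in each list or window up to 3 DEGs per direction with the smallest adjusted p (or, with no DEG, the gene with the smallest adjusted p), and the 5 genes closest to Akr1b7 over the libraries. Exceptions are genes given as absent, and genes chosen after their values were seen: those said to be so, Bpgm, Sord, Nr1h2, Star, Fdx1, Pdgfra, Cbr3 and Lrguk. p-values measure the spread between cultures of each group.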

Additional observations from a re-analysis of the deposited data

How the results depend on the processing

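Under DESeq2, RLE size factors, no filter and thinned libraries, the log2 fold change of Akr1b7 was between 3.55 and 4.09 and that of Gm13857 between 4.34 and 4.43. The low value of Akr1b7, 3.55, was that of thinned libraries, where the fewest counts remain in the control; the cause was not tested. With 1 library left out, Akr1b7 ran from 3.69 to 4.36 and Gm13857 from 4.03 to 5.12, the last without control library 2, which held 5 of its 8 control counts. Akr1c12, tested only without the filter or by DESeq2, was at 1.81 and 1.90. The sign of Akr1b10 turned within this range, from -0.04 to 0.17. The genes called higher ran from 340 to 522 and those called lower from 219 to 364 with 1 library left out, and a test against a log2 fold change of 1 left 84 and 50. In the pathway lists 6 to 7 genes were then called higher and 2 to 5 lower. The 5 came without IFNγR1KO library 11, where Gsr and Cbr3 passed the fold limit. Near Akr1b7, 0 to 1 genes were called higher. The 1 was Lrguk, without IFNγR1KO library 12, with 4, 1 and 4 counts in control and 9, 11 and 4 in IFNγR1KO libraries, too few to be tested otherwise. Col1a2 had a log2 fold change of 1.00 without control library 3 and then missed the fold limit. No DEG named here changed sign under these settings. Dividing the same counts of Akr1b7 by its length less the 348 shared bases, with no count removed, gave 0.722 and 12.5 CPM per kb. No paired analysis was possible because the groups share no replicate number. Akr1b7, Gm13857 and Akr1c12 had at most 8 counts in a control library, so depth limits their values there.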
